A study of Homo sapiens with 24 samples.

Results

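The matrix metalloproteinases described here are MMP1, MMP2, MMP3, MMP10, MMP14, MMP15 and MMP16, together with their tissue inhibitors TIMP1, TIMP2 and TIMP3. These 10 genes were taken by name and found by their Ensembl identifiers in each of the 3 count tables of the study. They are 10 of 58735 genes in the siRNA table of SK-N-SH cells, of 61541 in the table of the same cells with CRISPRi, and of 78932 in that of SK-N-AS cells. The study lowered FAM167A, also called DIORA1, in human neuroblastoma cell lines and concerns the protein's binding to the MRCK kinases and its part in cell motility.

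In the first experiment SK-N-SH cells received a pool of siRNAs against DIORA1 (5 libraries), or a non-targeting control siRNA (NTC, 5 libraries). In the second, SK-N-SH cells with SpCas9-KRAB, a Cas9 protein joined to a transcriptional repressor domain, carried the guide sgDIORA1 (3 libraries) or the non-targeting guide sgGal4 (3 libraries). The third repeated this CRISPR interference (CRISPRi) design in SK-N-AS cells, with 4 sgDIORA1 and 4 sgGal4 libraries. Knockdown and control cells of a CRISPRi experiment thus share the repressor and differ in the guide. The sources used here do not say whether the CRISPRi cells were single clones or mixed populations, nor whether replicates were separate cultures. The p-values therefore measure the spread between libraries, which may be technical.

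Matrix metalloproteinases are zinc enzymes that cut proteins of the extracellular matrix and of the cell surface. They are made as inactive proenzymes, and their activity is set by transcription, by removal of the propeptide and by binding of TIMPs. MMP1, MMP2, MMP3 and MMP10 are secreted, whereas MMP14, MMP15 and MMP16 are anchored in the plasma membrane. MMP14 and TIMP2 together dock the proenzyme of MMP2 at the cell surface, where it is activated, so that TIMP2 both aids and limits the same enzyme.

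The promoter sequences of the members with the largest rises and the largest fall in SK-N-SH CRISPRi are shown first, because the members of this family differ in their proximal promoters. They come from RefSeq (GRCh38.p14), are written 5′ to 3′ on the gene's strand, and stop before the first base that GENCODE 29 or RefSeq annotates as transcribed. RefSeq windows were used for 5 of the 10 members, MMP10, MMP14, MMP15, TIMP1 and TIMP3. Capitals mark 3 motifs searched on both strands, the AP-1 motif TGANTCA, the TATA box TATAAA and the GC box GGGCGG. MMP10 lies at chr11:102780629-102780878 (minus strand), MMP14 at chr14:22836335-22836556 (plus strand) and TIMP3 at chr22:32801455-32801700 (plus strand).
MMP10: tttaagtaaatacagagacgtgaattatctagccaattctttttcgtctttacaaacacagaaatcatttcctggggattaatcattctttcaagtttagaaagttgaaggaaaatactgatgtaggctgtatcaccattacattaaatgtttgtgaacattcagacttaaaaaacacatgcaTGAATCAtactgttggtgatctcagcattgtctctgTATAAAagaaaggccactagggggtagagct
MMP14: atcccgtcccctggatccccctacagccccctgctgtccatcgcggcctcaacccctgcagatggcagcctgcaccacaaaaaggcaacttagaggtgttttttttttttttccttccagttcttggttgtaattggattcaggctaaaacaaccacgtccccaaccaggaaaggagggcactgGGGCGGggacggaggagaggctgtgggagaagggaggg
TIMP3: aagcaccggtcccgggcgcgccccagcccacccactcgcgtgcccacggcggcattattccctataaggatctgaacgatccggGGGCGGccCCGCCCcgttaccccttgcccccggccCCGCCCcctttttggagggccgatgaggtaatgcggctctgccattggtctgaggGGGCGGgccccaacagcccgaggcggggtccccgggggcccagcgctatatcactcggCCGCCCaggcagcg
Positions count from the RefSeq start. MMP10 has an AP-1 motif 67 to 61 bases before its start and a TATA box 31 to 26 bases before it, and no GC box. The AP-1 motif is a known element of collagenase and stromelysin promoters. MMP14 has a single GC box, 66 to 61 bases before its RefSeq start, and TIMP3 has 5, of which 3 read on the opposite strand. The printed MMP14 stretch stops 28 bases before that start and the TIMP3 stretch 4 bases before its own. Over the 250 bases before the RefSeq start, the G and C content was 34.4% for MMP10, 56.8% for MMP14 and 72.4% for TIMP3, against a median of 58.0% over all windows. MMP15 (74.8%) had 5 GC boxes and TIMP1 (64.8%) had 2, and neither had the AP-1 or TATA letters. Among 35116 RefSeq windows of this length, 6.573% held the AP-1 motif, 10.716% the TATA box and 42.639% the GC box. These matches describe the letters of the windows only.

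Libraries of the siRNA experiment held 71464698 to 90255175 gene reads, those of SK-N-SH CRISPRi 11690515 to 21628076 and those of SK-N-AS CRISPRi 29985858 to 104455853. Levels are in CPM, reads scaled to a common library size with TMM factors, as mean ± SD over a group's libraries and log2 fold changes, knockdown over control, as estimate ± standard error (SE). A gene is said to rise or fall where edgeR's quasi-likelihood test gave a Benjamini-Hochberg adjusted p under 0.05 over all genes tested in that experiment. FAM167A was at 65.2 ± 5.13 CPM in siRNA knockdown cells and 188 ± 12.5 CPM in their controls (n = 5 each), or 34.7% of control. It kept 1.33% of its control level with CRISPRi in SK-N-SH and 10.7% in SK-N-AS. By the same test 9.53% of 21018 tested genes changed with siRNA, 55.8% of 15391 with CRISPRi in SK-N-SH and 30.6% of 19277 with CRISPRi in SK-N-AS. In an earlier analysis of these data siRNA knockdown library 4 and control library 5 stood apart from their groups in ribosomal protein genes; without both, each of the 10 members kept its direction and its side of the threshold.

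The 3 knockdowns moved this family in different ways. With siRNA, 4 of the 10 members fell, MMP1, MMP3, MMP10 and MMP14, against 6.98% of all tested genes called lower and 2.55% called higher. By edgeR 0 of the 10 were called higher, and 0 were higher at an unadjusted p under 0.05 or by DESeq2, whereas 7 were lower at an unadjusted p under 0.05 and 5 by DESeq2. Of all tested genes 9.03% were higher and 12.7% lower at an unadjusted p under 0.05 in edgeR, and of the 18159 genes with an adjusted p in DESeq2 4.48% were called higher and 8.98% lower. With CRISPRi in SK-N-SH all 10 members were called, 6 higher (MMP1, MMP2, MMP10, MMP14, TIMP1 and TIMP2) and 4 lower (MMP3, MMP15, MMP16 and TIMP3), where 27.7% of all genes were called higher and 28.0% lower. With CRISPRi in SK-N-AS all 8 members tested were called, 5 higher (MMP1, MMP2, MMP15, TIMP1 and TIMP2) and 3 lower (MMP14, MMP16 and TIMP3), where 15.2% of all genes were called higher and 15.5% lower. MMP3 and MMP10 had too few reads in SK-N-AS to be tested. Knockdown and control libraries did not overlap for 4 of 10 members with siRNA, 10 of 10 with CRISPRi in SK-N-SH and 8 of 8 in SK-N-AS, against 8.74%, 60.7% and 29.1% of all tested genes. Changes of at least 2-fold were found for 2 members with siRNA, 5 with CRISPRi in SK-N-SH and 1 in SK-N-AS, against 0.699%, 10.8% and 2.99% of all tested genes. The members' median log2 fold change was -0.15 with siRNA, 0.38 in SK-N-SH CRISPRi and 0.20 in SK-N-AS CRISPRi, where the medians over all tested genes were 0.0085, -0.0068 and -0.0024.

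**Figure D1:**
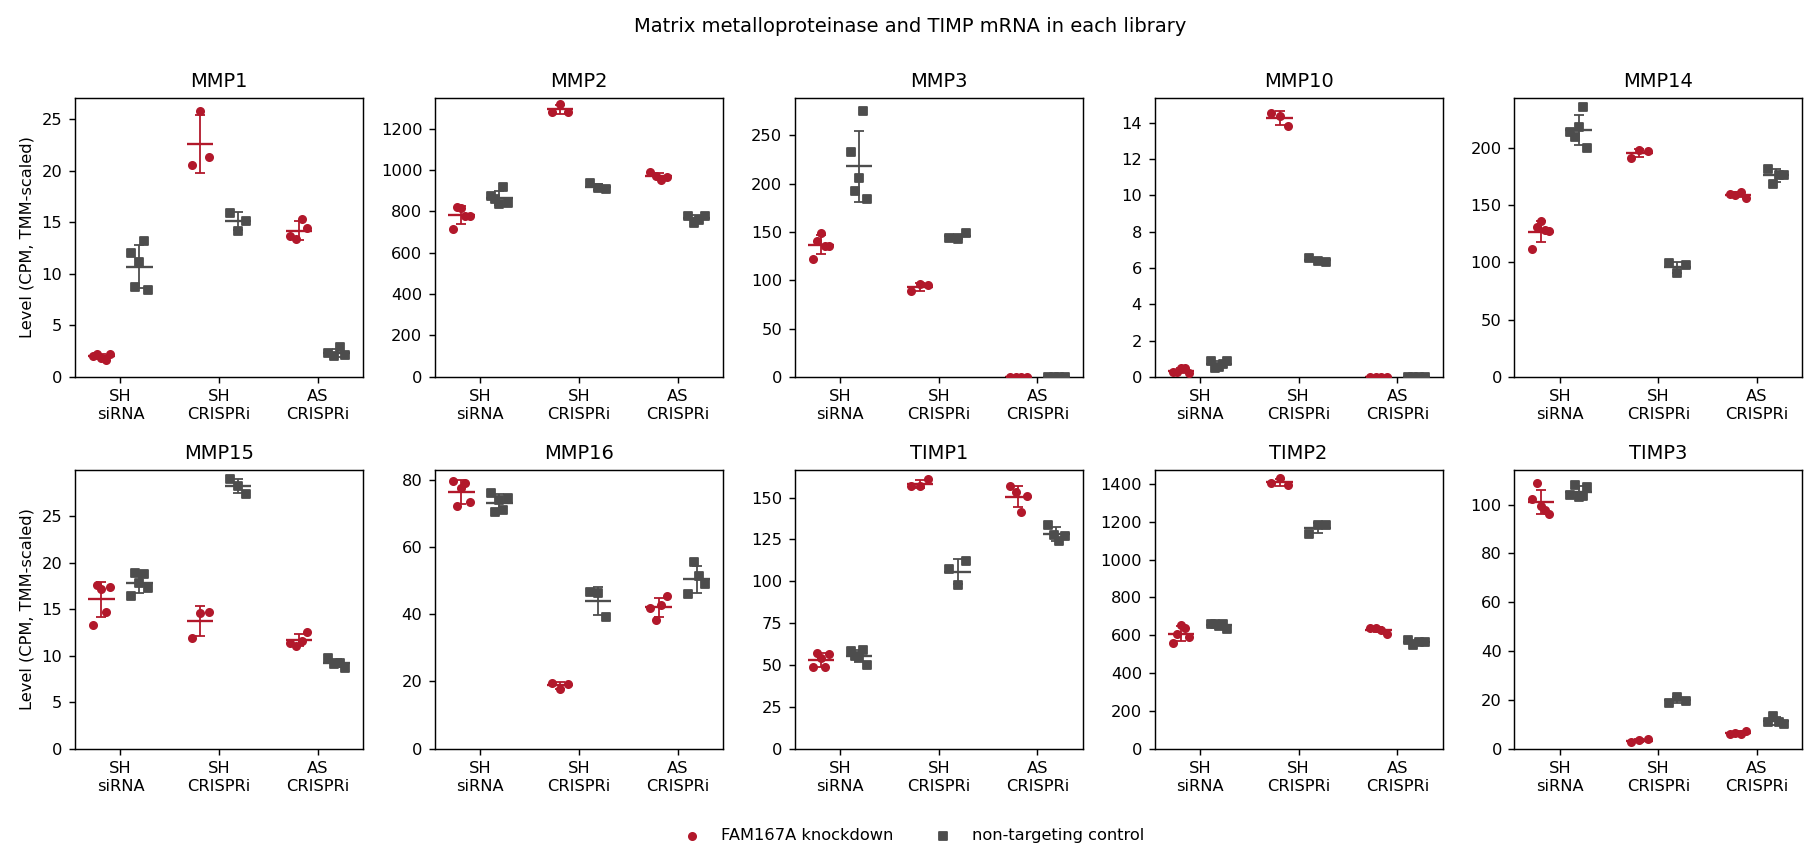
Level of each member in every library, in TMM-scaled CPM on a linear axis from 0, with knockdown libraries as circles left of the control libraries as squares in each of the 3 experiments; the horizontal line is the group mean and the bars are 1 SD. MMP1 is low in siRNA knockdown cells and high in SK-N-AS CRISPRi knockdown cells, each against its own controls, and TIMP3 is at 3.25 CPM in SK-N-SH CRISPRi knockdown cells against 19.8 CPM in their controls.

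Scaled to exon length, MMP2 was the most abundant metalloproteinase in each of the 6 groups. In SK-N-SH siRNA cells it stood at 159 ± 8.84 CPM per kb in knockdown and 175 ± 6.51 CPM per kb in control libraries (n = 5 each), 59.9% and 50.8% of the summed level of the 7 metalloproteinases. In SK-N-SH CRISPRi cells its share of that sum was 69.8% in knockdown and 62.1% in control libraries, and in SK-N-AS 80.1% and 76.8%. TIMP2 was the most abundant inhibitor throughout, and in SK-N-SH CRISPRi controls, at 207 ± 5.02 CPM per kb, it lay above MMP2 at 186 ± 3.00 CPM per kb (n = 3 each).

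MMP3 was the metalloproteinase next to MMP2 in both sets of SK-N-SH controls, at 106 ± 17.9 CPM per kb in siRNA controls (n = 5) and 70.9 ± 1.43 CPM per kb in CRISPRi controls (n = 3). In siRNA controls the libraries of TIMP2 and MMP3 overlapped in this order, as did those of MMP16, MMP1 and MMP15 neighbour by neighbour. In CRISPRi controls MMP3 and TIMP1 overlapped, and so did MMP10 and MMP16. In SK-N-AS controls MMP14 took the place after MMP2, at 39.4 ± 1.19 CPM per kb (n = 4), since MMP3 had no read. The lowest members above 0 there were MMP1 at 1.19 ± 0.203 CPM per kb and MMP15 at 2.08 ± 0.099 CPM per kb, and the libraries of MMP15 and TIMP3 overlapped. These orders hold within a group; library kits and sequencing runs differed between experiments, so levels in different experiments were not tested against each other.

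**Figure D2:**
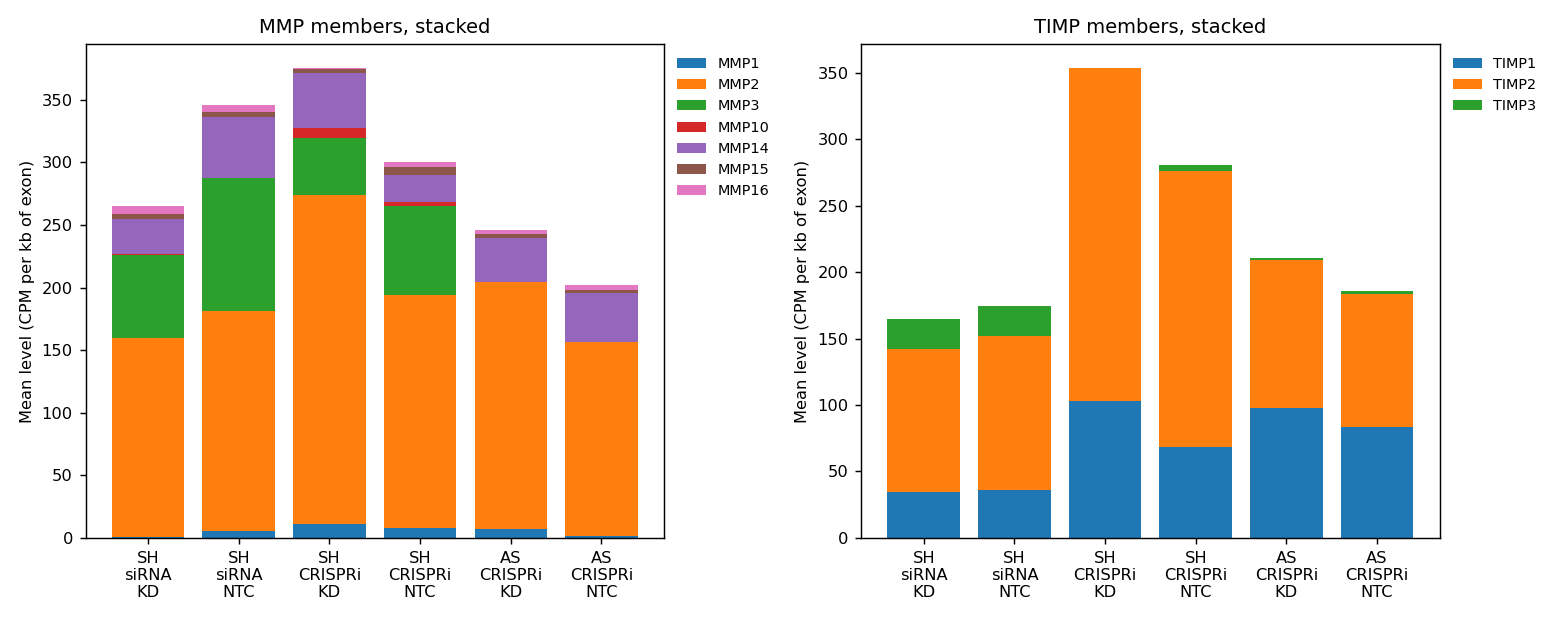
Mean level of each member in CPM per kb of exon, stacked, for the 7 metalloproteinases (left) and the 3 TIMPs (right), with the knockdown bar left of its control in each experiment. The summed metalloproteinase level was 265 in siRNA knockdown and 346 in siRNA control cells, 376 and 300 in SK-N-SH CRISPRi, and 246 and 202 in SK-N-AS CRISPRi, and MMP2 (orange) makes up most of each bar.

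MMP1, MMP3 and MMP10 are neighbours in a cluster of 9 metalloproteinase genes that spans 435.2 kb of chromosome 11 (GRCh38, 102520508 to 102955734), all on the minus strand. MMP10 lies 9291 bases from MMP1, and MMP1 lies 37640 bases from MMP3. Of the other 6 genes of the cluster MMP12 had the most reads, 545 in siRNA knockdown and 656 in siRNA control libraries, and it was not called in either experiment in which it was tested. MMP7, MMP8, MMP13, MMP20 and MMP27 each had at most 51 reads in any of the 6 groups, and MMP20 had none. The reads of the 9 metalloproteinase genes in SK-N-SH cells thus came almost entirely from MMP1, MMP3, MMP10 and MMP12.

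MMP1 (ENSG00000196611; chr11:102789920-102798160) encodes interstitial collagenase, which cuts the triple helix of fibrillar collagens. With siRNA its level was 2.05, 2.24, 1.83, 1.66 and 2.25 CPM in knockdown libraries 1 to 5, against 12, 8.70, 11.1, 13.2 and 8.39 CPM in control libraries 1 to 5. Each knockdown library was far below every control library, and the controls spread more than the knockdown libraries did. The fitted level was 5.32-fold lower in knockdown cells (log2 fold change -2.41 ± 0.13 SE, adjusted p = 7.11e-11).

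In SK-N-SH CRISPRi cells MMP1 moved in the opposite direction, with 20.6, 25.8 and 21.4 CPM in knockdown libraries and 15.96, 14.2 and 15.2 CPM in control libraries. The groups did not overlap, and knockdown library 2 was the highest (log2 fold change 0.58 ± 0.09, adjusted p = 7.59e-07). The rise was larger in SK-N-AS, where MMP1 had 13.6, 13.3, 15.3 and 14.5 CPM in knockdown and 2.36, 2.00, 2.90 and 2.11 CPM in control libraries. That is 5.88-fold (log2 fold change 2.56 ± 0.09, adjusted p = 6.96e-22), the only change of at least 2-fold among the 8 members tested in that line. MMP1 shares 150 exon bases, 7.6% of its exon length, with the pseudogene WTAPP1 on the opposite strand. WTAPP1 itself had 122 reads in siRNA knockdown and 172 in siRNA control libraries, against 817 and 4002 for MMP1, and no read in SK-N-AS.

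MMP3 (ENSG00000149968; chr11:102835801-102843803), stromelysin 1, cuts many matrix proteins and activates other metalloproteinase proenzymes. With siRNA it had 122, 140, 149, 135 and 135 CPM in knockdown libraries, against 233, 192, 206, 275 and 185 CPM in control libraries. All knockdown libraries lay below all controls (log2 fold change -0.68 ± 0.11, adjusted p = 0.00219). Ranked from high to low, the 5 control libraries took the same order for MMP3 as for MMP1, with library 4 highest and library 5 lowest. In the knockdown libraries the orders of MMP3 and MMP1 differed. Control library 4 was also highest and control library 5 lowest for MMP14, TIMP1 and TIMP2, which lie on other chromosomes. With CRISPRi in SK-N-SH, MMP3 had 88.8, 95.8 and 94.8 CPM in knockdown libraries and 144, 143 and 149 CPM in control libraries, again without overlap (log2 fold change -0.64 ± 0.04, adjusted p = 1.82e-15). MMP3 was thus the member that fell in both SK-N-SH experiments, while its neighbours MMP1 and MMP10 rose in SK-N-SH CRISPRi. In SK-N-AS its reads were 10, 14, 4 and 0 in knockdown libraries and 0 in all 4 control libraries. Pooled over the groups, the 28 knockdown reads are 0.0940 CPM. A limit of 3 reads for the control count of 0 is 0.0121 CPM, a ratio of 7.76. This ratio allows for counting error in the controls only. It leaves out the counting error of the knockdown reads and the spread between libraries. The groups overlapped, since knockdown library 4 had 0 reads, and MMP3 was not tested in this line.

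MMP10 (ENSG00000166670; chr11:102770503-102780628), stromelysin 2, is close in sequence to MMP3. The pair shared 59 words of 50 bases, 3.36% of those of MMP10 and 2.88% of those of MMP3, and no other of the 45 member pairs shared one. With siRNA MMP10 was low, at 0.253, 0.277, 0.490, 0.475 and 0.228 CPM in knockdown and 0.882, 0.480, 0.552, 0.693 and 0.855 CPM in control libraries, 137 against 257 reads. The groups overlapped (log2 fold change -1.01 ± 0.28, adjusted p = 0.0243). Knockdown libraries 3 and 4, at 0.490 and 0.475 CPM, lay closest to the controls. In their counts over all genes they were also closer to each other than to knockdown libraries 1, 2 and 5. The call was lost without knockdown library 1, 2 or 5 (adjusted p = 0.0594, 0.0567 and 0.0600) and without control library 1 or 4 (adjusted p = 0.0795 and 0.0537). In SK-N-SH CRISPRi cells MMP10 had 14.5, 14.4 and 13.8 CPM in knockdown libraries and 6.53, 6.40 and 6.30 CPM in control libraries. It was 2.22-fold higher with no overlap (log2 fold change 1.15 ± 0.11, adjusted p = 1.13e-11), which makes it the member with the largest rise in this experiment. SK-N-AS cells had no MMP10 read in 8 libraries, which allows up to 0.0101 CPM in the knockdown and 0.0121 CPM in the control group.

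MMP2 (ENSG00000087245; chr16:55389700-55506691), gelatinase A, cuts denatured collagen and basement membrane collagen. It rose in both CRISPRi experiments. In SK-N-SH it had 1281, 1318 and 1282 CPM in knockdown libraries and 936, 912 and 909 CPM in control libraries, and in SK-N-AS 990, 974, 954 and 968 CPM in knockdown and 780, 745, 761 and 778 CPM in control libraries. The groups did not overlap in either line (log2 fold changes 0.49 ± 0.04 and 0.34 ± 0.02, adjusted p = 8.04e-14 and 2.13e-14). With siRNA its 714, 822, 819, 779 and 780 CPM in knockdown libraries also lay below the 874, 861, 834, 916 and 843 CPM of the controls, but the difference missed the threshold (log2 fold change -0.14 ± 0.05, 95% interval -0.24 to -0.05, adjusted p = 0.0554). It passed without knockdown library 2 (adjusted p = 0.0476), without control library 5 (0.0376), with DESeq2 (0.0195) and with no low-count filter (0.0256).

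MMP14 (ENSG00000157227; chr14:22836557-22849027), the membrane-type 1 enzyme that activates MMP2, took a different direction in the 2 SK-N-SH experiments. With siRNA it had 112, 131, 136, 129 and 127 CPM in knockdown libraries and 214, 209, 218, 236 and 200 CPM in control libraries. This is 1.70-fold lower with a wide gap between the groups (log2 fold change -0.76 ± 0.05, adjusted p = 4.67e-10). With CRISPRi in SK-N-SH it had 191, 198 and 197 CPM in knockdown libraries and 99.1, 90.3 and 98.1 CPM in control libraries. Here knockdown cells were 2.04-fold higher (log2 fold change 1.03 ± 0.04, adjusted p = 9.47e-22). In SK-N-AS the groups did not overlap either, but the difference was small, with 160, 159, 161 and 156 CPM in knockdown and 182, 169, 177 and 177 CPM in control libraries (log2 fold change -0.15 ± 0.03, adjusted p = 7.72e-05).

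MMP15 and MMP16, the membrane-type 2 and 3 enzymes, also activate proMMP2 in cell culture. In SK-N-SH CRISPRi cells both fell while MMP14 rose. MMP15 (ENSG00000102996; chr16:58025566-58046901) had 11.8, 14.6 and 14.7 CPM in knockdown libraries and 28.9, 28.2 and 27.4 CPM in control libraries (log2 fold change -1.04 ± 0.09, adjusted p = 3.12e-13). MMP16 (ENSG00000156103; chr8:88032009-88328025) had 19.7, 17.7 and 19.2 CPM in knockdown libraries and 46.7, 46.3 and 39.3 CPM in control libraries, 2.31-fold lower (log2 fold change -1.21 ± 0.08, adjusted p = 2.1e-16). Neither gene's groups overlapped.

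In SK-N-AS the membrane-type enzymes split differently. MMP15 rose there, with 11.6 ± 0.655 CPM in knockdown and 9.19 ± 0.438 CPM in control cells (n = 4 each, log2 fold change 0.34 ± 0.07, edgeR adjusted p = 0.000169). MMP16 fell, with 42.1 ± 2.83 CPM in knockdown and 50.5 ± 4.06 CPM in control cells (n = 4 each, log2 fold change -0.26 ± 0.05, edgeR adjusted p = 0.000118). Both sets of groups stayed apart, MMP16 narrowly, with 45.3 CPM in the highest knockdown and 46.0 CPM in the lowest control library. With siRNA neither passed the test. MMP15 was at 16.03 ± 1.89 CPM in knockdown and 17.8 ± 1.05 CPM in control cells, and MMP16 at 76.5 ± 3.49 and 73.3 ± 2.47 CPM (n = 5 each). The 95% intervals of their log2 fold changes were -0.30 to -0.00 and -0.02 to 0.15.

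TIMP3 (ENSG00000100234; chr22:32801701-32863043) is the inhibitor that stays bound to the matrix, and it also inhibits ADAM proteases such as ADAM17. Its fall in SK-N-SH CRISPRi cells was the largest fitted change of any member tested in the 3 experiments, by a small margin. The 95% interval, -2.85 to -2.35, overlapped in size those of MMP1 in SK-N-AS (2.37 to 2.74) and with siRNA (-2.68 to -2.14). In SK-N-SH CRISPRi, TIMP3 had 2.62, 3.44 and 3.70 CPM in knockdown libraries and 18.8, 21.1 and 19.6 CPM in control libraries, or 149 against 990 reads. It was 6.08-fold lower (log2 fold change -2.60 ± 0.12, adjusted p = 3.34e-20). In SK-N-AS TIMP3 had 5.90, 6.44, 5.87 and 7.32 CPM in knockdown libraries and 10.8, 13.5, 10.7 and 10.1 CPM in control libraries. It was 1.74-fold lower there with no overlap (log2 fold change -0.80 ± 0.08, adjusted p = 1.49e-09). With siRNA the 102, 109, 99.5, 97.9 and 96.2 CPM of knockdown libraries overlapped the 104, 108, 103, 103 and 107 CPM of the controls (log2 fold change -0.06 ± 0.04, 95% interval -0.14 to 0.02, adjusted p = 0.428).

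TIMP1 and TIMP2 rose in both CRISPRi experiments, opposite to TIMP3. TIMP1 (ENSG00000102265; chrX:47582313-47586789), a secreted inhibitor that acts weakly on membrane-type enzymes, had 157, 157 and 161 CPM in SK-N-SH knockdown libraries and 107, 97.7 and 112 CPM in control libraries (log2 fold change 0.58 ± 0.05, adjusted p = 1.03e-13). In SK-N-AS it had 151 ± 6.42 CPM in knockdown and 128 ± 4.07 CPM in control cells (n = 4 each, log2 fold change 0.23 ± 0.03, edgeR adjusted p = 2.93e-07). TIMP1 lies within the SYN1 gene, on the other strand, and shares no exon base with it.

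TIMP2 (ENSG00000035862; chr17:78852977-78925387) had 1405, 1431 and 1396 CPM in SK-N-SH CRISPRi knockdown libraries and 1135, 1184 and 1185 CPM in control libraries (log2 fold change 0.27 ± 0.04, adjusted p = 1.94e-07). In SK-N-AS it had 628 ± 13.1 CPM in knockdown and 563 ± 12.6 CPM in control cells (n = 4 each, log2 fold change 0.16 ± 0.02, edgeR adjusted p = 3.03e-06). These rises were small, but in both lines all knockdown libraries were above all controls. TIMP2 shares 367 exon bases, 6.5% of its exon length, with the antisense gene AC022966.1, which had 123 reads in SK-N-SH CRISPRi knockdown and 120 in control libraries, against 64549 and 58538 for TIMP2. With siRNA neither inhibitor passed the test, at 53.1 ± 4.17 CPM in knockdown and 55.4 ± 3.69 CPM in control cells for TIMP1 and at 608 ± 38.0 and 652 ± 12.9 CPM for TIMP2 (n = 5 each). The 95% intervals of their log2 fold changes were -0.18 to 0.05 and -0.20 to -0.01, with adjusted p = 0.573 and 0.195 in edgeR.

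**Figure D3:**
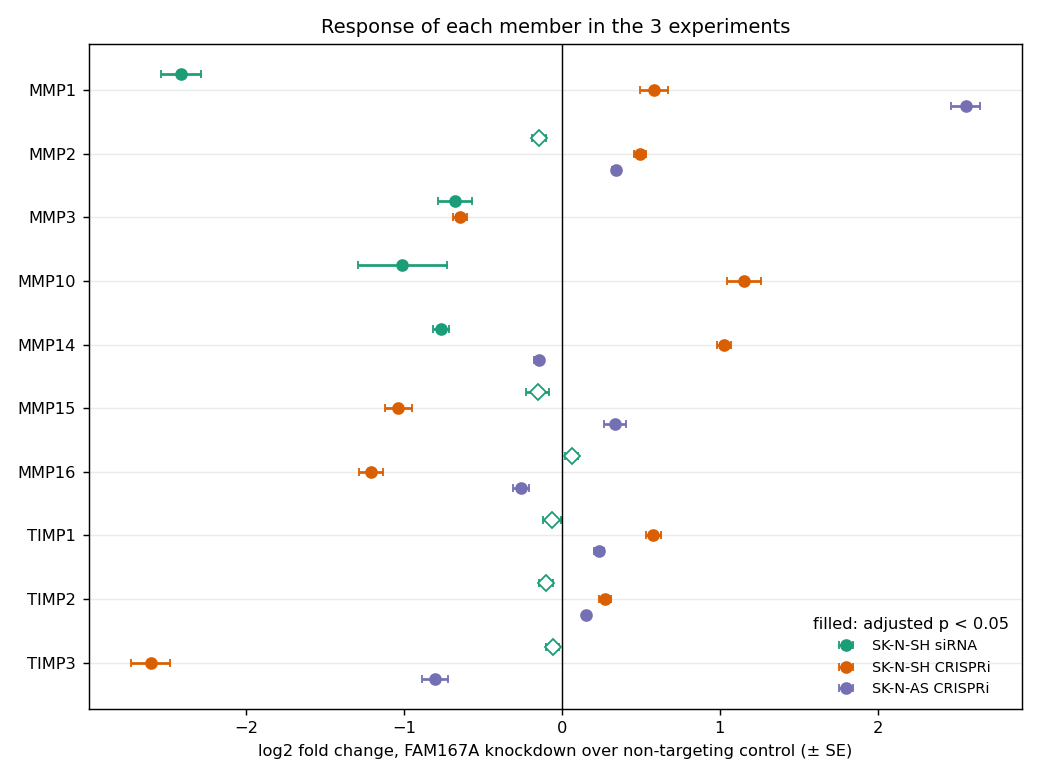
log2 fold change of each member, knockdown over control, with its standard error, in the 3 experiments; filled circles passed an adjusted p of 0.05 and open diamonds did not, and MMP3 and MMP10 were not tested in SK-N-AS. MMP1, MMP10 and MMP14 stand on opposite sides of 0 in the 2 SK-N-SH experiments, and TIMP3 is far below 0 in SK-N-SH CRISPRi (-2.60) and near 0 with siRNA (-0.06).

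The 2 SK-N-SH experiments were compared by testing the difference of their fold changes, each against its own controls, in a model in which 31.4% of 23287 genes differed. For 9 of the 10 members this difference passed. CRISPRi minus siRNA, it was 2.98 ± 0.20 for MMP1 (adjusted p = 6.91e-12), 2.15 ± 0.29 for MMP10 (2.68e-07) and 1.78 ± 0.08 for MMP14 (8.16e-19) on the log2 scale. These 3 members were called in opposite directions in the 2 experiments, and MMP3 was called lower in both. The like share among all genes called in both experiments is not given here. For TIMP3 the difference was -2.56 ± 0.12 (9.83e-19), for MMP16 -1.29 ± 0.09 (2.73e-14) and for MMP15 -0.90 ± 0.13 (5.87e-07). MMP2, TIMP1 and TIMP2 differed by 0.63, 0.63 and 0.36. MMP3 was the exception, at 0.02 ± 0.16 with a 95% interval of -0.32 to 0.37 (adjusted p = 0.996), an interval that leaves room for a difference in either direction. Knockdown method, residual FAM167A, library kit and sequencing run all differ between these experiments and cannot be told apart.

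Between the CRISPRi experiments all 8 members tested differed, in a model in which 30.7% of 19862 genes did. SK-N-SH minus SK-N-AS, the difference was -1.96 ± 0.14 for MMP1 (adjusted p = 3.56e-16), so that the rise was larger in SK-N-AS. It was -1.79 ± 0.17 for TIMP3 (3.47e-12) and -0.94 ± 0.10 for MMP16 (1.34e-10), both of which fell in both lines and by more in SK-N-SH. MMP14, higher in SK-N-SH and lower in SK-N-AS, differed by 1.19 ± 0.05 (7.97e-24), and MMP15, lower in SK-N-SH and higher in SK-N-AS, by -1.36 ± 0.11 (4.97e-14). TIMP1, MMP2 and TIMP2 differed least, by 0.36, 0.17 and 0.13. The difference for TIMP2 (adjusted p = 0.0158) was lost without SK-N-SH knockdown library 2 (0.0611) or SK-N-SH control library 1 (0.0687). Of the 8 members called in both lines, 6 moved in the same direction, MMP1, MMP2, MMP16, TIMP1, TIMP2 and TIMP3. The like share among all genes called in both lines is not given here, so this count describes the members only. Line and sequencing run cannot be told apart here.

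Ratios of mRNA levels per exon length were set side by side because these proteins act in pairs. MMP14 over TIMP2 was 0.264 in siRNA knockdown and 0.417 in siRNA control cells, 0.175 and 0.104 in SK-N-SH CRISPRi, and 0.320 and 0.394 in SK-N-AS CRISPRi. The libraries of the groups did not overlap in any of the 3 experiments, which was already so for MMP14 alone. MMP2 over TIMP2 overlapped between groups with siRNA, at 1.47 in knockdown and 1.51 in control cells, and was 1.05 and 0.899 in SK-N-SH CRISPRi and 1.77 and 1.55 in SK-N-AS, both without overlap. MMP1 over TIMP1 was 0.0295 in siRNA knockdown and 0.150 in siRNA control cells, and 0.0739 and 0.0143 in SK-N-AS knockdown and control cells. In SK-N-SH CRISPRi that ratio was 0.112 in both, since both genes rose by about the same amount. Summed TIMP over summed metalloproteinase mRNA was 0.621 with siRNA knockdown and 0.506 in its controls, with no overlap, 0.942 and 0.934 in SK-N-SH CRISPRi with overlap, and 0.856 and 0.919 in SK-N-AS without overlap. These ratios describe mRNA, not protein or activity.

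**Figure D4:**
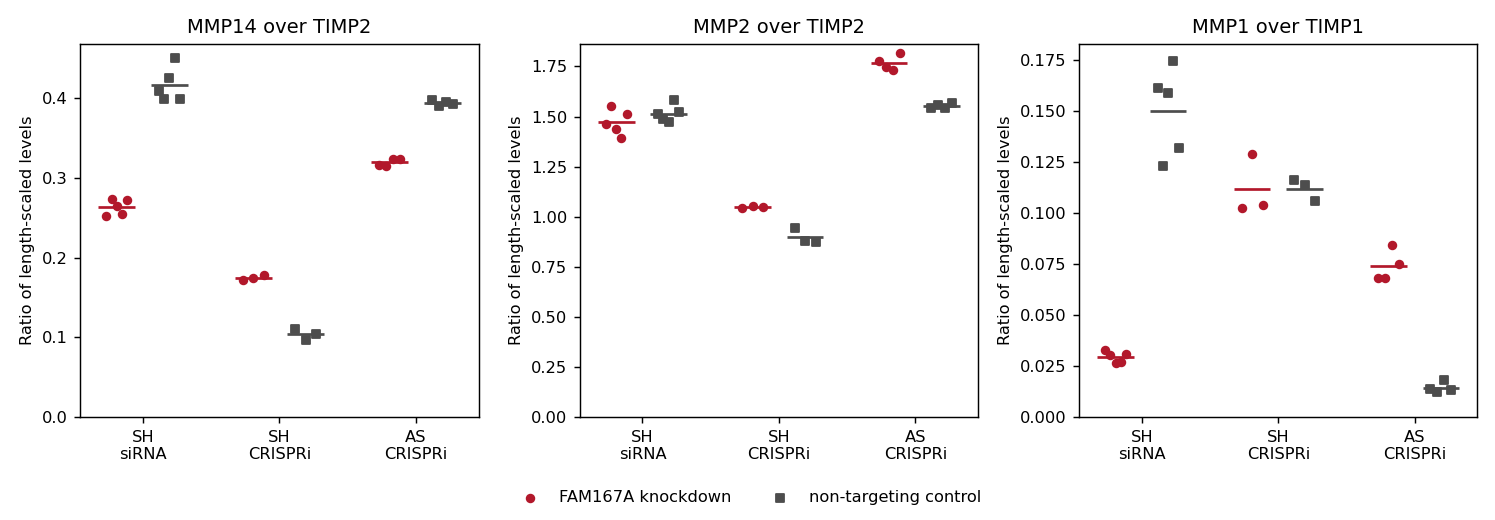
Ratio of mRNA levels per exon length in every library for 3 enzyme and inhibitor pairs, on linear axes from 0, with knockdown libraries as circles left of control libraries as squares and lines at the group means. MMP14 over TIMP2, like MMP14 alone, separates knockdown from control in all 3 experiments, lower with knockdown in the siRNA and SK-N-AS experiments and higher in SK-N-SH CRISPRi.

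Markers of neuroblastoma cell states moved with these results in SK-N-SH CRISPRi. The 8 adrenergic genes, which mark the neuroblast-like state, summed to 701 to 739 CPM in knockdown and 1825 to 1914 CPM in control libraries, and all 7 that were tested fell. Their member TH was at 0.0225 CPM in knockdown and 0.0423 CPM in control cells, and it stayed under 1 CPM in the other experiments. The 8 mesenchymal genes summed to 10654 to 11271 CPM in knockdown and 5658 to 6493 CPM in control libraries, 6 of 8 higher and 1 lower. Most of these sums came from FN1 (5609 CPM in knockdown and 2467 CPM in control cells) and VIM (3969 and 2768 CPM). TWIST1 was the gene that fell (157 and 239 CPM), and SNAI2 was not called. The 8 fibroblast and smooth muscle genes summed to 1893 to 1959 CPM in knockdown and 1056 to 1156 CPM in control libraries, with all 6 that were tested higher. In the siRNA experiment the adrenergic sums overlapped, at 1929 to 2110 CPM in knockdown and 1854 to 2026 CPM in control libraries, and 4 of 8 mesenchymal genes fell, with sums of 2028 to 2283 CPM in knockdown and 2400 to 2556 CPM in control libraries. There 4 of 7 tested fibroblast and smooth muscle genes rose and 1 fell, with sums of 358 to 373 CPM in knockdown and 331 to 354 CPM in control libraries. In SK-N-AS adrenergic sums were 1111 to 1164 CPM in knockdown and 1227 to 1280 CPM in control libraries (4 of 8 lower), and 6 of 8 mesenchymal genes rose and 2 fell, with sums of 2657 to 2740 CPM in knockdown and 2456 to 2508 CPM in control libraries. Fibroblast and smooth muscle genes summed to 1433 to 1504 CPM in SK-N-AS knockdown and 1236 to 1295 CPM in control libraries, 5 of 7 tested higher and 2 lower. Of all tested genes 9.53% were called with siRNA, 55.8% in SK-N-SH CRISPRi and 30.6% in SK-N-AS. The part of these markers in the members' changes was not tested. In bulk RNA, fewer cells of a type and less RNA per cell cannot be told apart.

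Markers of other cell types were low, with each library's sum over endothelial, glial or epithelial genes under 6 CPM in all 3 experiments. The blood list stood higher in SK-N-AS, at 436 to 464 CPM in knockdown and 518 to 561 CPM in control libraries. This came from PTPRC, at 451 CPM in knockdown and 542 CPM in control cells, while CD3E and HBB had no read.

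Of 13 tested genes listed as acting on the activation or induction of metalloproteinases, 6 fell with siRNA. By edgeR 0 were called higher there, and 0 at an unadjusted p under 0.05 or by DESeq2. With CRISPRi in SK-N-SH 9 of 14 rose and 4 fell, and in SK-N-AS 6 of 13 rose and 5 fell. By DESeq2 the 4 were PCSK6 (log2 fold change -1.49), SPOCK1 (-0.97), SPOCK2 (-1.60) and SPOCK3 (-3.23), each with an adjusted p under 0.05. The list does not separate genes that promote activation from genes that hold it back. Of all tested genes 2.55% rose and 6.98% fell with siRNA, and 27.7% rose and 28.0% fell in SK-N-SH CRISPRi. In SK-N-AS 15.2% rose and 15.5% fell. PLAU, the urokinase that forms plasmin, was at 70.0 ± 6.002 CPM in siRNA knockdown and 287 ± 26.0 CPM in siRNA control cells (n = 5 each, log2 fold change -2.04 ± 0.07, edgeR adjusted p = 2.61e-12). In SK-N-SH CRISPRi it was at 293 ± 8.59 CPM in knockdown and 121 ± 7.43 CPM in control cells (n = 3 each, log2 fold change 1.28 ± 0.04, edgeR adjusted p = 1.15e-24). In SK-N-AS it was lower in level but also rose, with 20.7 ± 1.01 CPM in knockdown and 9.08 ± 0.780 CPM in control cells (n = 4 each, log2 fold change 1.20 ± 0.06, edgeR adjusted p = 4.27e-17). PLAU and MMP1 thus fell with siRNA and rose in both CRISPRi experiments.

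Other genes of this list followed PLAU in part. PLAT, the tissue plasminogen activator, fell with siRNA (log2 fold change -0.81 ± 0.05) and rose in SK-N-SH CRISPRi (1.78 ± 0.04), but it fell in SK-N-AS (-0.11 ± 0.03). PLAUR, the urokinase receptor, fell with siRNA (-1.21 ± 0.07) and rose in SK-N-SH CRISPRi (0.29 ± 0.06) and in SK-N-AS (0.28 ± 0.05). ITGAV and ITGB3 encode the integrin alpha v and beta 3 chains, which together bind MMP2 at the cell surface. ITGAV rose in SK-N-SH CRISPRi (0.97 ± 0.04) and in SK-N-AS (0.48 ± 0.03), and with siRNA it was at -0.10 ± 0.04 (adjusted p = 0.161 in edgeR). ITGB3 fell with siRNA (-0.70 ± 0.08) and rose in SK-N-SH CRISPRi (1.67 ± 0.10) and in SK-N-AS (1.59 ± 0.07). The adjusted p of each change called a rise or a fall here was under 0.05 in edgeR.

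Among 16 further metalloproteinase genes few were expressed. With siRNA 1 of 9 tested was called, where 9.53% of all tested genes were called. This was MMP23B, at 0.344 ± 0.111 CPM in knockdown and 0.148 ± 0.042 CPM in control cells (n = 5 each, edgeR adjusted p = 0.0362). DESeq2 gave MMP23B no adjusted p (log2 fold change 1.22, unadjusted p = 0.00150) and called 0 of this list there. In SK-N-SH CRISPRi 3 of 6 rose and 1 fell, where 55.8% of all tested genes were called. MMP11, stromelysin 3, was at 156 ± 4.48 CPM in knockdown and 47.0 ± 2.66 CPM in control cells (n = 3 each, log2 fold change 1.73 ± 0.05, edgeR adjusted p = 3.86e-27), where the largest rise among the 10 members was that of MMP10 (1.15). MMP24, the membrane-type 5 enzyme, fell (-0.52 ± 0.06), like MMP15 and MMP16. MMP19 rose in SK-N-SH CRISPRi (0.67 ± 0.20) and in SK-N-AS (1.01 ± 0.21). MMP17 rose in both as well (0.43 ± 0.13 and 0.22 ± 0.06). They were the 2 called of 6 tested in SK-N-AS, where 30.6% of all tested genes were called. Of the other inhibitors and clearance genes, RECK, a membrane-anchored inhibitor of MMP2 and MMP14, rose in SK-N-SH CRISPRi (0.54 ± 0.06) and SK-N-AS (0.51 ± 0.06). With siRNA edgeR called 0 of 4 tested and DESeq2 called 0 of the 2 to which it gave an adjusted p (RECK and LRP1), and 1, RECK, was lower at an unadjusted p under 0.05. LRP1, the endocytic receptor that clears metalloproteinases bound to inhibitors, rose in SK-N-SH CRISPRi (0.82 ± 0.18). RECK and LRP1 were the only inhibitor and clearance genes tested there. The other 3 of the 5 listed were not tested, and 27.7% of all tested genes were called higher there.

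Of the 4 ADAM proteases listed as targets of TIMP3, all were tested in each experiment. Of all tested genes 9.53% were called with siRNA, 55.8% in SK-N-SH CRISPRi and 30.6% in SK-N-AS. In SK-N-SH CRISPRi 3 of 4 rose, ADAM12 by 0.56 ± 0.05, ADAM15 by 0.20 ± 0.04 and ADAM10 by 0.18 ± 0.04 on the log2 scale. In SK-N-AS ADAM10 rose (0.26 ± 0.03) and ADAM12 (-0.47 ± 0.03) and ADAM15 (-0.14 ± 0.04) fell. With siRNA ADAM15 fell (-0.33 ± 0.06). Each of these changes had an adjusted p under 0.05 in edgeR.

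Transcription factors known to act at metalloproteinase promoters were called in all 3 experiments. Of all tested genes 9.53% were called with siRNA, 55.8% in SK-N-SH CRISPRi and 30.6% in SK-N-AS. With siRNA 4 of 15 fell and 1 rose, in SK-N-SH CRISPRi 8 rose and 5 fell, and in SK-N-AS 10 rose and 2 fell. FOSL1, an AP-1 subunit, fell with siRNA, at 26.2 ± 2.15 CPM in knockdown and 41.0 ± 4.84 CPM in control cells (n = 5 each, log2 fold change -0.65 ± 0.07, edgeR adjusted p = 6.14e-06). ETS1 fell there as well (-0.33 ± 0.05) and ETS2 rose (0.26 ± 0.05). FOSL2, another AP-1 subunit, rose in SK-N-SH CRISPRi (0.65 ± 0.06) and in SK-N-AS (0.45 ± 0.03), and so did RUNX1 (0.76 ± 0.06 and 0.89 ± 0.06). The 5 factors that fell in SK-N-SH CRISPRi were all other AP-1 subunits, FOS (-0.54 ± 0.07), FOSB (-0.55 ± 0.10), FOSL1 (-0.19 ± 0.06), JUNB (-0.41 ± 0.06) and JUND (-0.33 ± 0.05), and JUN was at -0.08 ± 0.05 (adjusted p = 0.131 in edgeR). In SK-N-AS FOS (0.48 ± 0.12), FOSB (0.80 ± 0.15), FOSL1 (0.40 ± 0.03) and JUNB (0.19 ± 0.03) rose, JUND fell (-0.25 ± 0.03) and JUN was at -0.04 ± 0.04 (adjusted p = 0.440 in edgeR). ETS1 rose in SK-N-AS (0.68 ± 0.05). FOSL2 and RUNX1 are also in the mesenchymal list above.

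Of 8 genes for collagens and fibronectin, substrates of these enzymes, 7 rose and 1 fell in SK-N-SH CRISPRi. There 27.7% of all tested genes rose and 28.0% fell. FN1, which encodes fibronectin and was among those that rose there, is also in the mesenchymal list above. COL3A1 was at 4120 ± 41.8 CPM in knockdown and 1445 ± 43.9 CPM in control cells (n = 3 each, log2 fold change 1.51 ± 0.04, edgeR adjusted p = 2.89e-27). COL5A1 (1.29 ± 0.04) and the basement membrane chain COL4A1 (1.13 ± 0.04) rose as well. In SK-N-AS 2 of 7 rose and 4 fell, where 15.2% of all tested genes rose and 15.5% fell. There COL4A1 was at 7.61 ± 0.502 CPM in knockdown and 23.2 ± 1.14 CPM in control cells (n = 4 each, log2 fold change -1.60 ± 0.06, edgeR adjusted p = 6.48e-21), and COL4A2 fell with it (-1.52 ± 0.06), whereas COL3A1 rose (0.47 ± 0.02). With siRNA COL5A1 rose (0.42 ± 0.08) and COL4A1 fell (-0.23 ± 0.06), the 2 called of 8. Of all tested genes 2.55% rose and 6.98% fell with siRNA.

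**Figure D5:**
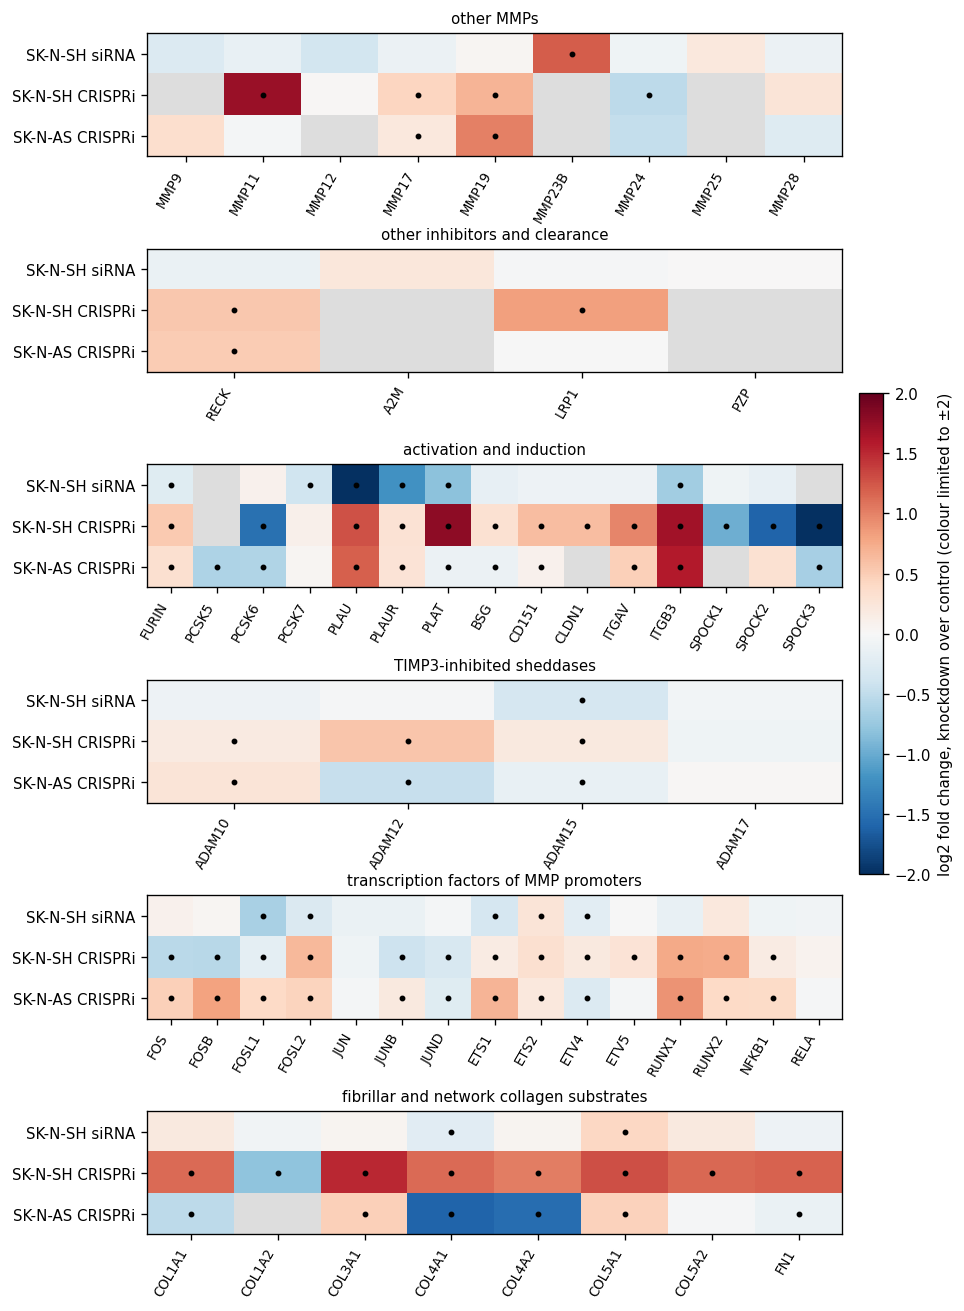
log2 fold change, knockdown over control, of the tested genes of each list in the 3 experiments (rows), with colour from blue (lower in knockdown) to red (higher in knockdown) limited to 2 on either side of 0; a dot marks an adjusted p under 0.05 and grey a gene not tested. PLAU, PLAUR and PLAT are blue with siRNA and red in SK-N-SH CRISPRi, and COL4A1 and COL4A2 are red in SK-N-SH CRISPRi and blue in SK-N-AS.

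Genes of like pattern were sought for the 3 members with the largest changes, by Pearson's r over the 24 libraries of log2 CPM centred on the control mean of each experiment, among 13942 genes tested in all 3. Because the controls are centred, r mainly sets the 3 knockdown groups of libraries side by side, and it is a description with no test. For TIMP3 the 3 closest genes were PHF21B (r = 0.990), FAM163A (0.989) and SNAP91 (0.989), which had log2 fold changes of -2.33, -1.92 and -1.97 in SK-N-SH CRISPRi. For MMP16 they were IGFBPL1 (0.983), CHD7 (0.982) and SFMBT2 (0.982), at -2.04, -1.38 and -1.86 there. For MMP1 they were SRPX (0.981), ATP13A3 (0.980) and CTSL (0.978), a lysosomal cysteine protease. In SK-N-AS these 3 had log2 fold changes of 0.89, 0.59 and 0.35, smaller than that of MMP1.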

How the data were processed

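RNA was measured by RNA sequencing in 24 libraries. The CRISPRi libraries were made with a stranded mRNA kit and the siRNA libraries from poly-T selected mRNA by a protocol covering stranded and non-stranded kits, per the labels' protocols. The submitters' processing notes name bcl2fastq 2.20.0.422 and 2.20, CASAVA, FastQC 0.11.8, STAR 2.6.1d, featureCounts 1.5.1 and GRCh38. The sources used here give neither the annotation release nor the strand setting, so reads shared with an opposite-strand gene are uncertain. The deposited tables hold counts, raw reads per gene and library, 1 table per experiment.

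Each experiment was fitted alone in R 4.3.3 with edgeR 4.0.16 (filterByExpr, minimum count 10 and total 15; TMM; glmQLFit with robust estimation; glmQLFTest, two-sided; Benjamini-Hochberg over all genes tested). The standard error is the fold change over the square root of the test statistic. Differences in response are interaction terms of a model with a mean per group over both experiments. Folds are those of the fitted log2 fold change. CPM counts reads of tested genes with TMM factors, and CPM per kb uses the exon length in the siRNA table, which equals the GENCODE 29 exon length. Lengths and coordinates are those of that table. Motif letters were searched in RefSeq windows of 250 bases. Alternatives were RLE size factors, library totals only, DESeq2 1.42.0, other low-count filters, a replicate block and leaving out libraries.

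On simulated counts with known changes, 100% of 2-fold changes were recovered in each experiment, and of 1.5-fold changes 100% with siRNA, 74.6% in SK-N-SH CRISPRi and 94.0% in SK-N-AS. The changes were planted in genes above a count limit only, and all genes had the same fixed spread. These rates therefore do not extend to genes of few reads, such as MMP10 and MMP23B with siRNA, or to genes of larger spread. Counts of every replicate pair differed by more than sampling noise. In siRNA knockdown the chi-square per degree of freedom was 8.38 between libraries 3 and 4 and 12.0 to 20.9 among libraries 1, 2 and 5. Between these sets it was 30.5 to 50.0. The members and gene lists were chosen with earlier results of these data known. All members are named, and of each of 6 lists of related genes up to 3 called genes per experiment with the smallest adjusted p. Some further genes of these lists are named as well. Single values of some marker genes are not reported here.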

Additional observations from a re-analysis of the deposited data

Results flagged for a closer look

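The members whose response differed between experiments by a test of the difference itself are listed here with their log2 difference of fold changes; in 37 sets of 4 or 5 libraries (a member in a group) no library stood apart from the rest of its group by Dixon's gap test. Between SK-N-SH CRISPRi and SK-N-SH siRNA, CRISPRi minus siRNA, the differences were 2.98 for MMP1, 0.63 for MMP2, 2.15 for MMP10, 1.78 for MMP14, -0.90 for MMP15, -1.29 for MMP16, 0.63 for TIMP1, 0.36 for TIMP2 and -2.56 for TIMP3. The adjusted p in edgeR was 5.27e-05 for TIMP2, 2.25e-09 for MMP2 and 4.1e-07 for TIMP1, and the other values are in the report. Between SK-N-SH CRISPRi and SK-N-AS CRISPRi, SK-N-SH minus SK-N-AS, they were -1.96 for MMP1, 0.17 for MMP2, 1.19 for MMP14, -1.36 for MMP15, -0.94 for MMP16, 0.36 for TIMP1, 0.13 for TIMP2 and -1.79 for TIMP3. In edgeR the adjusted p was 0.00112 for MMP2, 2.08e-06 for TIMP1 and 0.0158 for TIMP2.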

How the results depend on the processing

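Of 401 alternative values of the members' fold changes, 391 kept their direction and their side of the threshold, as did 340 of 344 alternative values of the differences between experiments, and all 43 alternative counts of called genes stayed within 1.5 times the reported count. The exceptions concern 4 results. The siRNA change of MMP2 passed with DESeq2 (-0.14, adjusted p = 0.0195) and with no low-count filter (-0.15, adjusted p = 0.0256), and over the leave-one-out fits it lay between -0.16 and -0.12. The siRNA change of MMP10 lost its call with replicate number as a block (-1.03, adjusted p = 0.0558) and lay between -1.17 and -0.89 over the leave-one-out fits; with a filter at 1 CPM it was not tested. The difference between the SK-N-SH experiments for MMP3 lay between -0.060 and 0.091, turning sign without siRNA knockdown library 1 or siRNA control library 4, and never passed. The difference between lines for TIMP2 lay between 0.10 and 0.15. The replicate numbers of knockdown and control libraries did not pair them, since deviations of same-numbered libraries correlated by -0.40 to 0.12 with siRNA, -0.01 to 0.08 in SK-N-SH CRISPRi and -0.29 to 0.22 in SK-N-AS; with the block 1532, 8460 and 5894 genes were called against 2004, 8582 and 5904 without it. Genes called higher with siRNA numbered 536, and 322 with the block, 813 with DESeq2 and 282 without control library 4. Scaling by library totals alone called 1315 genes higher and 1068 lower with siRNA, against 536 and 1468, and 2791 higher and 6397 lower in SK-N-SH CRISPRi, against 4269 and 4313. In SK-N-SH CRISPRi that scaling moved the median of all genes to -0.14, and no member changed direction in any of the 3 experiments. Few or no reads limit MMP10 with siRNA and MMP3 and MMP10 in SK-N-AS, although these libraries were deeper than those of SK-N-SH CRISPRi, and the cause of each change with the processing was not tested.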
